A study of Drosophila melanogaster with 3 samples.

Results

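Myc binding below the significance line of a chromatin immunoprecipitation and sequencing (ChIP-seq) experiment in Drosophila melanogaster embryos was described here, for peaks that nevertheless recurred in every replicate. The members were chosen from the deposited dm6 lists by presence and position. Each was a peak of the pooled relaxed list with no summit of the thresholded list within 100 bp, and with a summit within 100 bp in each of the 3 replicates' own relaxed lists. They numbered 3336 of the 24667 pooled peaks, and 16.4% of the 20296 pooled peaks below the threshold. The thresholded list held 4371 peaks, called IDR peaks below, and the remaining 16960 peaks lacked a summit in at least 1 replicate. The members are called reproducible below-cut peaks.

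The embryos were 0 to 16 h old, of pooled sexes, and came from the transgenic dm-GFP strain, a stable line in which enhanced GFP is joined to the C terminus of Myc (gene symbol dm in older usage). Chromatin was sonicated to 200 to 800 bp and precipitated with an antibody against GFP. The 3 biological replicates form 1 group, so no condition was compared. Whole embryos mix all cell types, so a weak peak in many cells and a strong one in few cannot be told apart.

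Myc is a basic helix-loop-helix leucine zipper protein that binds DNA as a dimer with Max, preferring the palindromic E-box CACGTG, and it promotes growth through genes of ribosome production, translation and metabolism. Mnt competes for Max as a repressor. Drosophila core promoters carry words of their own, among them the element TATCGATA bound by the DNA replication-related element factor (DREF) and GGTCACAC, the core of the promoter word known as Motif 1. The irreproducible discovery rate (IDR) compares ranked peak lists between replicates and sets the rank beyond which the order of peaks no longer recurs, so a peak can recur in position and still fall below the line.

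The windows below show the words on which the sequence results turn, each 101 bases centred on a member's summit, read from the plus strand of the dm6 genome, 5′ to 3′. Capitals mark the word or its reverse complement. Each is the strongest member with that word among those whose whole window lay outside exons and outside the chromosome arm not printed here, and the Bmcp window is the strongest with the E-box away from promoters, a choice made after values were seen.
prage promoter, E-box CACGTG, chrX:1842954-1843054: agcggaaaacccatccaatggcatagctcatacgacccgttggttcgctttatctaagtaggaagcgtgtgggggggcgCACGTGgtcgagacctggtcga
Bmcp intron, E-box CACGTG, chr3L:11721499-11721599: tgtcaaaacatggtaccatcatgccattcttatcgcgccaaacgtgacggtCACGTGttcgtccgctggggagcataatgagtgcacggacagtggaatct
rg intron, E-box variant CACGCG, chrX:5087223-5087323: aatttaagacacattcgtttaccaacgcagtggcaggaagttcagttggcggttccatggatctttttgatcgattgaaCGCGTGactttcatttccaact
su(w[a]) promoter, DREF element, chrX:1033202-1033302: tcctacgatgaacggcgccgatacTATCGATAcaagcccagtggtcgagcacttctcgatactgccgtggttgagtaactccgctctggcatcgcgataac
CG15356 promoter, Motif 1 core, chr2L:1980775-1980875: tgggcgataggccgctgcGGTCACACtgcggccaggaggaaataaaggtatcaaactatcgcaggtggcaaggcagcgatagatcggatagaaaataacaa
CG4592 promoter, GCAGCAGC, chr2L:9921520-9921620: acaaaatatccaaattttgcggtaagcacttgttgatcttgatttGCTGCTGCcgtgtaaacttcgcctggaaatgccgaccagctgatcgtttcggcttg

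Presence in all replicates fell along the pooled ranking, on both sides of the end of the IDR list. It was read in bins of 1000 ranks, and the bin with that end mixes IDR peaks with others. A step at the line itself would not be seen. The IDR list was exactly the 4371 pooled peaks of highest signal, the authors' score per peak, whose scaling is not given in the sources used here. Its lowest signal was 110.323, and the strongest member, at rank 4372, had 110.322. No pooled peak below the line had an IDR summit within 100 bp, so distance to an IDR summit removed nothing. Of ranks 1 to 1000, 96.0% had a summit in all 3 replicate lists (95% Wilson interval 94.6 to 97.0). The share was 69.9% (67.0 to 72.7) at ranks 4001 to 5000, where the line falls, 50.8% (47.7 to 53.9) at ranks 6001 to 7000 and 22.2% (19.7 to 24.9) at ranks 10001 to 11000. Members reached as far as rank 23964, with a median rank of 7319.5. Among the IDR peaks themselves 3767, or 86.2%, met the same condition. These intervals, like all below, cover counting error only, and the read depth behind the lists is unknown.

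**Figure D1:**
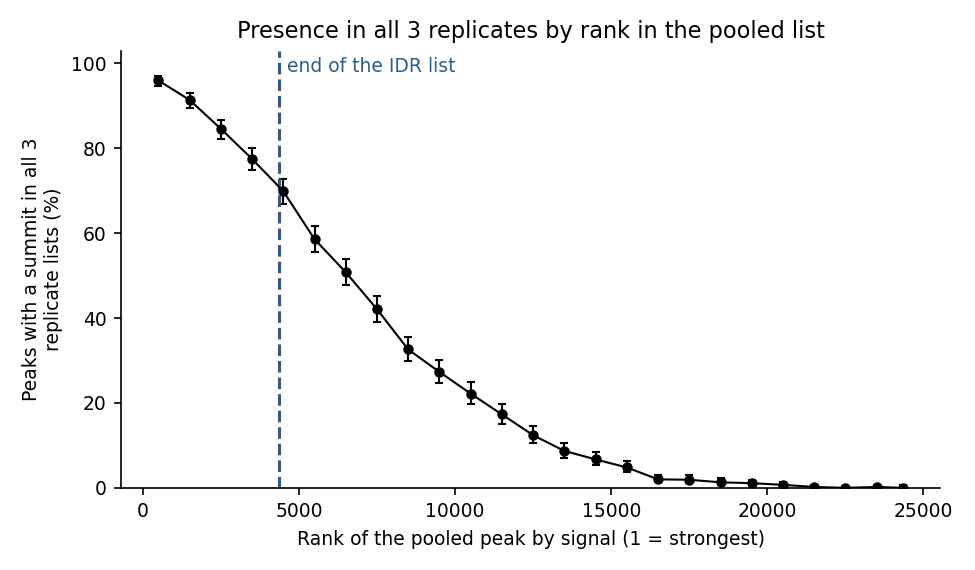
Share of pooled peaks with a summit within 100 bp in all 3 replicate lists (y axis, percent) in bins of 1000 ranks by pooled signal (x axis). Bars are 95% Wilson intervals and the dashed line is the end of the IDR list. The bin that holds it has 69.9%, after 77.5% in the bin before it and ahead of 58.6% in the bin after it.

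Many of the other below-cut peaks missed the rule by a single replicate. A summit was found in 2 replicate lists for 7913 of them, in 1 list for 7598 and in none for 1449. The missing list was that of replicate 1 for 1910 peaks, of replicate 2 for 3088 and of replicate 3 for 2915. At the edge of the 100 bp rule, the 320 members whose farthest replicate summit lay 91 to 100 bp away had a median pooled signal of 73.8, and the 263 peaks left out at 101 to 110 bp had 69.2. When 1 replicate was dropped from the rule, the members numbered 5246 without replicate 1, 6424 without replicate 2 and 6251 without replicate 3.

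In every replicate the members stood well under the IDR peaks. Signal in each replicate's own list was divided by the median of the IDR peaks found in that list, so that 1 is a typical IDR peak. The members' median relative signal was 0.384 in replicate 1, 0.395 in replicate 2 and 0.359 in replicate 3, or 0.379 ± 0.0184 (SD, n = 3). Their middle ranges, 0.291 to 0.504, 0.294 to 0.527 and 0.268 to 0.478, lay below the IDR peaks' lower quartiles of 0.735, 0.72 and 0.706. Pooled signal had a median of 75.8 and a range of 33.7 to 110.3, against medians of 175.9 for IDR peaks and 43.1 for the other below-cut peaks. The pooled −log10 q-value of members ran from 0.03 to 3.26, with a median of 1.5, and the lowest value of an IDR peak was 3.14. Signal chose these sets, so these values describe them and were not tested.

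**Figure D2:**
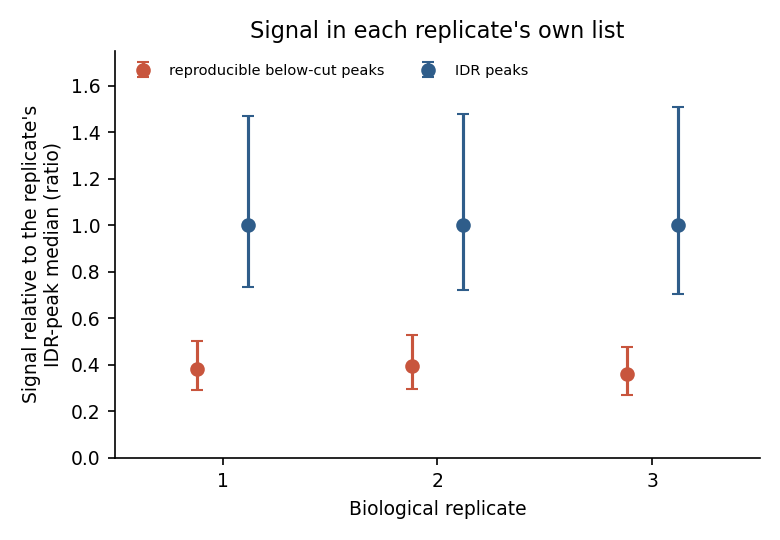
Signal relative to the median of the IDR peaks of the same replicate (y axis, ratio) for each biological replicate (x axis), as median (point) and quartiles (bar). Members have medians of 0.359 to 0.395, and their quartile ranges do not meet those of the IDR peaks.

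A member was usually weak in every replicate rather than strong in one. A replicate's top list here means its 4371 strongest peaks. No top list held 2459 members (73.7%), 1 held 794, 2 held 79 and all 3 held 4. By replicate, the top list held 8.15%, 9.41% and 11.3% of the members, against 83.6%, 79.1% and 83.0% of the IDR peaks. The median coefficient of variation of relative signal over the 3 replicates was 27.2% for members and 27.4% for the IDR peaks in all 3 lists. Replicate 3 was the lowest of the 3 for 41.2% of members and for 40.7% of those IDR peaks. Spearman's rho of signal between replicates was 0.269, 0.193 and 0.161 over the 3336 members (replicates 1 and 2, 1 and 3, 2 and 3). It was 0.717, 0.595 and 0.531 over the 3767 IDR peaks. Members were chosen below the line in pooled signal and with a summit in every list, so weakness in the replicates follows in part from that choice. The peaks share libraries and the members span a narrow range of signal, so these values are descriptions.

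Members lay at promoters less often than IDR peaks, and in exons, introns and intergenic DNA more often. A promoter summit was one within 500 bp of the start of a protein-coding transcript, and the other summits were placed in turn as exon, intron or intergenic. Promoters held 1392 members, or 41.7% (95% interval 40.1 to 43.4), against 68.4% (67.0 to 69.8) of IDR peaks and 11.5% of the genome's bases. The odds ratio was 0.33 (0.301 to 0.363, adjusted p = 1.5e-121, Fisher's exact test, two-sided, with Benjamini-Hochberg adjustment over the 5 classes tested). Introns held 32.4% of members and 20.7% of IDR peaks (odds ratio 1.84, adjusted p = 8.7e-31, Fisher's exact test). Intergenic DNA held 16.8% and 9.43% (odds ratio 1.94, adjusted p = 9.0e-22, Fisher's exact test). Placed by the summits of each replicate in turn, 41.9% ± 0.125 (SD, n = 3) of members were at promoters. The rule kept those summits within 100 bp of the pooled one, so this SD does not measure variation between replicates. These tests treat peaks as independent, and peaks of 1 set of libraries are not replicates of a condition.

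Exons showed the greatest relative difference. They held 303 members (9.08%) and 64 IDR peaks (1.46%), an odds ratio of 6.72 (5.11 to 8.84, adjusted p = 3.6e-56, Fisher's exact test). The members' share was below the 19.3% of the genome's bases in this class and the 19.8% of the other below-cut peaks there. Those others were weaker, with a median pooled signal of 43.1 against 75.8. Over ranks 4372 to 8742, in a comparison added after the data were seen, exons held 4.89% of members and 4.81% of other peaks. That odds ratio was 1.02 (0.771 to 1.34, adjusted p = 0.944, Fisher's exact test). Coding sequence held 233 of the 303 exon members (76.9%) and 18 of the 64 exon IDR peaks (28.1%), the rest lying in untranslated exon sequence alone. Exon members had the lowest median pooled signal of the 4 classes, 57.5, against 81.8 at promoters, 74.7 in introns and 72.5 in intergenic DNA. Among the stronger members, those at or above the median signal, the odds ratio against IDR peaks was 2.69, and without replicate 2 in the rule it was 11.6.

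**Figure D3:**
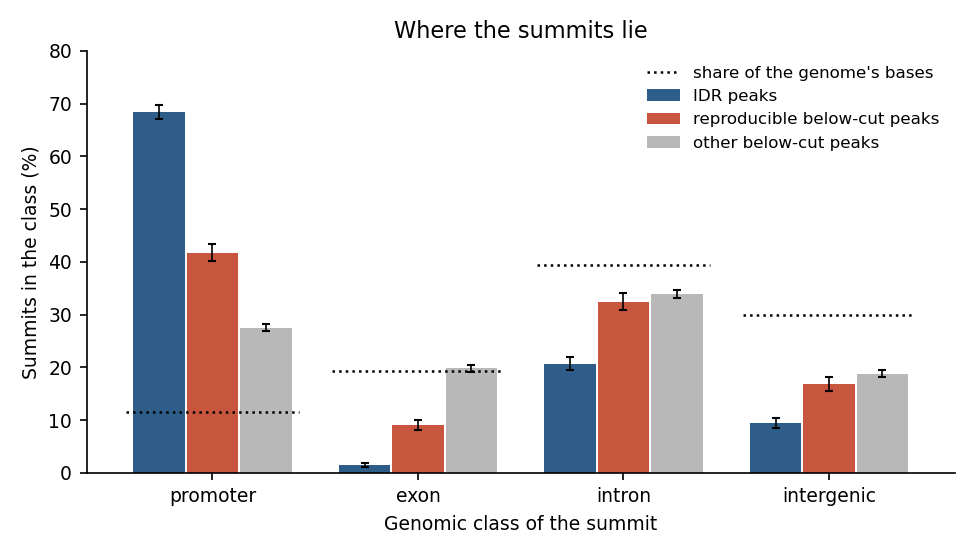
Share of summits in each genomic class (y axis, percent, from 0) for IDR peaks, reproducible below-cut peaks and the other below-cut peaks, with 95% Wilson intervals, and the class's share of genome bases (dotted). Promoter shares step down from 68.4% to 41.7% and 27.5% across the sets, and exon shares rise from 1.46% to 9.08% and 19.8%.

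The promoter share changed with signal within the members too. It was 53.5% (50.1 to 56.8) in the strongest of 4 equal groups by signal, then 46.5%, 39.4% and 27.5% (24.5 to 30.6) in the weakest. In the weakest of the 4 groups of IDR peaks it was 60.6% (57.7 to 63.5). To narrow the range of rank, the 2189 members of ranks 4372 to 8742 were set against the 2182 other peaks of those ranks, a comparison added after the data were seen. Rank still differed within that range. The share of peaks in all 3 lists was 58.6% at ranks 5001 to 6000 and 42.1% at ranks 7001 to 8000. Members thus lay more at the stronger end, which was not adjusted for. Promoters held 47.3% of these members and 52.7% of the others (odds ratio 0.805, adjusted p = 0.00178, Fisher's exact test), and intergenic DNA 15.6% and 12.6% (odds ratio 1.28, adjusted p = 0.012, Fisher's exact test). This rested on replicate 3: without it in the rule the odds ratios were 1.0 and 0.969 (adjusted p = 0.975 for both, Fisher's exact test). With promoters of 250 bp the first was 0.9 (adjusted p = 0.21), and with summits matched within 50 bp 0.89 (adjusted p = 0.355, Fisher's exact test). Introns, at 32.2% of these members and 29.8% of the others, did not pass the test (odds ratio 1.12, adjusted p = 0.159, Fisher's exact test), nor did exons.

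At promoters, members sat on the transcription start as IDR peaks did, with a wider spread. The middle range of summit positions was 97 bp upstream to 77 bp downstream, with a median 9 bp upstream. For IDR peaks it was 97 bp upstream to 28 bp downstream, with a median 26 bp upstream. Of promoter members, 53.7% lay within 100 bp of the start, against 63.8% of promoter IDR peaks. Starts of 2 or more genes were in reach of 24.8% of promoter members and 39.7% of promoter IDR peaks. Starts of small nucleolar RNAs, which guide modification of ribosomal RNA, lay within 250 bp of 1 member and 21 IDR peaks, and starts of tRNAs of 7 members and 5 IDR peaks. Non-coding RNA starts in all were in reach of 2.73% and 3.13% (odds ratio 0.867, 0.662 to 1.13, adjusted p = 0.309, Fisher's exact test). The shares by chromosome arm did not pass the test, with a smallest adjusted p of 0.495 over 6 arms (Fisher's exact test).

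A minority of members flanked IDR peaks. The closest lay 199 bp from an IDR summit, 244 members (7.31%) lay within 250 bp of one, and another 19 lay farther, up to 500 bp away. The intervals of 261 members overlapped an IDR interval, each member's interval being 450 bp wide. Promoters held 79.5% of the members within 250 bp of an IDR summit and 38.7% of the rest. The median distance to an IDR summit was 5993 bp. Over 500 bp from IDR summits, the odds ratio of the promoter share against all IDR peaks was 0.289 (adjusted p = 3.4e-145, Fisher's exact test).

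The canonical E-box was rarer at members than at IDR peaks. CACGTG lay within 50 bp of the summit, on either strand, in 93 members (2.79%, 2.28 to 3.4) and in 6.02% of IDR peaks (5.35 to 6.76), as in the prage and Bmcp windows. The odds ratio was 0.448 (0.352 to 0.57, adjusted p = 9.6e-11, Fisher's exact test over 13 words). Placed by each replicate's summits, the members' share was 2.91% ± 0.159 (SD, n = 3). This is over the same members, whose replicate summits lie within 100 bp by the rule, so it does not measure variation between replicates. The variant CACGCG was in 4.02% and 5.28% (odds ratio 0.75, adjusted p = 0.0203, Fisher's exact test). CAGCTG, an E-box of other helix-loop-helix proteins, was in 5.76% and 7.12% (odds ratio 0.797, adjusted p = 0.0326, Fisher's exact test). CATGTG, another variant, was in 6.18% and 7.41% (odds ratio 0.822, 0.686 to 0.985 before adjustment, adjusted p = 0.0594, Fisher's exact test).

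The E-box difference lay with the strongest IDR peaks. Over the 4 groups of IDR peaks from strongest to weakest, 13.4% (11.5 to 15.5), 4.03%, 3.11% and 3.57% held CACGTG. Over the 4 groups of members it was 2.64%, 3.12%, 3.0% and 2.4%, and all 4 intervals overlapped. Set against the weakest IDR peaks alone (1092 peaks), the odds ratio was 0.774 (0.529 to 1.13, adjusted p = 0.398, Fisher's exact test). Over ranks 4372 to 8742, against other pooled peaks not matched rank by rank, it was 0.925 (0.66 to 1.3, adjusted p = 0.789, Fisher's exact test). None of the 13 words passed its test in either of these comparisons.

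**Figure D4:**
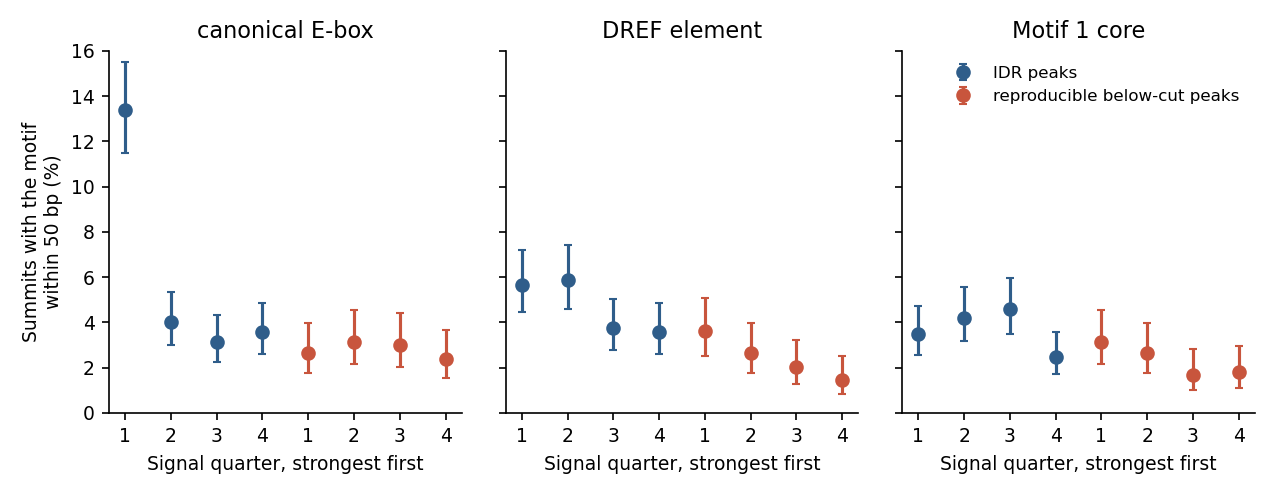
Share of summits with the canonical E-box, the DREF element or the Motif 1 core within 50 bp (y axis, percent, with 95% Wilson intervals) in 4 groups of IDR peaks and 4 of members by signal, strongest first (x axis). The E-box stands at 13.4% in the strongest IDR group and between 2.4% and 4.03% in all the others.

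Members carried the E-box more often away from promoters than at them, the opposite order to IDR peaks. CACGTG was at 1.87% of promoter members and 3.45% of the others (odds ratio 0.533, 0.337 to 0.843, adjusted p = 0.0191, Fisher's exact test). In IDR peaks it was at 6.85% and 4.2% (odds ratio 1.68, 1.24 to 2.26, adjusted p = 0.00123, Fisher's exact test). The ratio of the 2 odds ratios was 0.318 (0.184 to 0.549, adjusted p = 3.5e-04 over 13 words, Zelen's exact test, two-sided), in a comparison added after the data were seen. Against the weakest IDR peaks alone, that ratio was 0.98 (unadjusted p = 1, Zelen's exact test). Within promoters, members held it less often than IDR peaks (odds ratio 0.259, 0.171 to 0.391, adjusted p = 1.6e-12, Fisher's exact test). Away from promoters the odds ratio was 0.814 (0.568 to 1.16, adjusted p = 0.537, Fisher's exact test).

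Against the members' own flanks, 500 bp towards higher coordinates, the E-box was more frequent at the summit. It was within 50 bp of 93 summits and 42 flank centres, a ratio of 2.21 (adjusted p = 5.8e-05, exact McNemar test, two-sided, over 13 words). Away from promoters the counts were 67 and 23 (adjusted p = 7.6e-06, exact McNemar test over 3 words in 2 places). At promoters they were 26 and 19 (adjusted p = 0.446, exact McNemar test). The 2 places were not shown to differ in this (odds ratio 0.47, adjusted p = 0.113, Fisher's exact test over 3 words). The control palindrome GTGCAC, which has the base composition of the E-box, also stood above its flank, in 114 members against 65 (adjusted p = 6.2e-04, exact McNemar test).

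Over all members, the promoter words were more frequent at summits than at flanks, and less frequent than at the summits of IDR peaks. TATCGATA, shown in the su(w[a]) window, was at 81 summits and 7 flanks (adjusted p = 5.8e-16, exact McNemar test). GGTCACAC, shown at CG15356, was at 77 and 14 (adjusted p = 6.8e-11, exact McNemar test). Over all peaks TATCGATA was at 2.43% of members and 4.71% of IDR peaks (odds ratio 0.503, adjusted p = 6.8e-07, Fisher's exact test). GGTCACAC was at 2.31% and 3.68% (odds ratio 0.618, adjusted p = 0.00172, Fisher's exact test). At promoters the shares were 5.17% and 6.75% for TATCGATA (odds ratio 0.753, 0.571 to 0.993 before adjustment, adjusted p = 0.0964, Fisher's exact test). For GGTCACAC they were 5.32% and 5.22% (odds ratio 1.02, 0.768 to 1.36, adjusted p = 0.958, Fisher's exact test), so the direction of its overall difference did not hold there. Over ranks 4372 to 8742, where members lay more at the stronger end, both words stood higher in members than in other peaks, without passing the test. TATCGATA was at 2.92% and 1.79% (odds ratio 1.65, 1.11 to 2.48 before adjustment, adjusted p = 0.106, Fisher's exact test), and GGTCACAC at 2.47% and 1.51% (odds ratio 1.65, 1.06 to 2.55 before adjustment, adjusted p = 0.129, Fisher's exact test). Away from promoters both words were scarce in members, at 0.463% and 0.154%. There TATCGATA was at 9 summits and 1 flank (adjusted p = 0.0322, exact McNemar test over 3 words in 2 places), and GGTCACAC at 3 and 4. The 2 places differed for GGTCACAC (odds ratio 9.87, adjusted p = 0.0294, Fisher's exact test over 3 words). They were not shown to differ for TATCGATA (odds ratio 1.33, adjusted p = 0.584, Fisher's exact test). At promoters, summit and flank also differ in distance to the start, which was not held alike.

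Sequence at members was richer in GC than at IDR peaks, and p-values here are unadjusted. The 101 bases around the summit were 43.5% GC on average (SD 10.9 over peaks) against 41.1% (SD 9.75) in IDR peaks, a difference of 2.41 percentage points (p = 1.0e-05, permutation test, two-sided, the smallest its 100000 resamples can give). The difference was 0.912 points for the stronger members (p = 0.00129, permutation test). With 1 replicate dropped from the rule it was 2.11 points without replicate 1, 3.54 without replicate 2 and 4.02 without replicate 3. Exon members averaged 55.9% GC, promoter members 44.7%, and intron and intergenic members 40.2% each. Over ranks 4372 to 8742, members were lower in GC than the other peaks, 42.2% against 43.2% (p = 0.00111, permutation test). Members lay more at the stronger end of that range. Over all members, GC content was 41.3% in the strongest of 4 groups by signal and 46.5% in the weakest. The part of rank in the difference from other peaks was not tested. GCAGCAGC, shown at CG4592, was at 1.98% of members and 0.938% of IDR peaks (odds ratio 2.13, adjusted p = 7.0e-04, Fisher's exact test). The control palindrome TCCGGA was at 1.56% and 0.778% (odds ratio 2.02, adjusted p = 0.00369, Fisher's exact test). The controls AGCGCT and GTGCAC, of the same GC content as TCCGGA, were not more frequent in members. Their odds ratios were 0.881 and 0.838 (adjusted p = 0.545 and 0.239, Fisher's exact test). Neither GCAGCAGC nor TCCGGA stood above its flank, with adjusted p of 0.543 and 0.802 (exact McNemar test). The part of GC content in the difference of these words from IDR peaks was not tested.

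Members reached genes that the IDR list did not. Of the 10326 protein-coding genes with no IDR summit within 500 bp of a start, 1254 (12.1%) had a member there. Another 422 genes had a summit of both kinds at their starts. With 1 replicate dropped from the rule, the genes with a member and no IDR summit numbered 1702 without replicate 1, 1928 without replicate 2 and 1954 without replicate 3. IDR peaks reached 3619 genes, so that both kinds together reached 4873. The gene lists below are read against the 12.1%, as counts with no test.

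Lists of the growth machinery differed in how many genes already had an IDR summit, from 31.2% of proteasome and 33.7% of oxidative phosphorylation genes to 91.4% of cytosolic ribosomal protein genes and 97.3% of ribosome biogenesis and nucleolus genes. Of 34 mitochondrial ribosomal protein genes without an IDR summit, 11 had a member (32.4%, 95% interval 19.1 to 49.2). Among replication and licensing genes it was 6 of 13 (46.2%, 23.2 to 70.9), among translation factors 5 of 17 (29.4%, 13.3 to 53.1) and among aminoacyl-tRNA synthetases 4 of 14 (28.6%, 11.7 to 54.6). Proteasome genes, with 5 of 33 (15.2%), and oxidative phosphorylation genes, with 9 of 57 (15.8%), were near the background. Segmentation and dorsoventral patterning genes had 7 of 36 (19.4%, 9.75 to 35.0), and Hox complex genes and cofactors 3 of 13 (23.1%, 8.18 to 50.3). Chemosensory receptor and odorant-binding protein genes had 0 of 226, which allows up to 1.67%, muscle genes 0 of 23, which allows up to 14.3% and so includes the background, and cuticle protein genes 2 of 121 (1.65%).

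**Figure D5:**
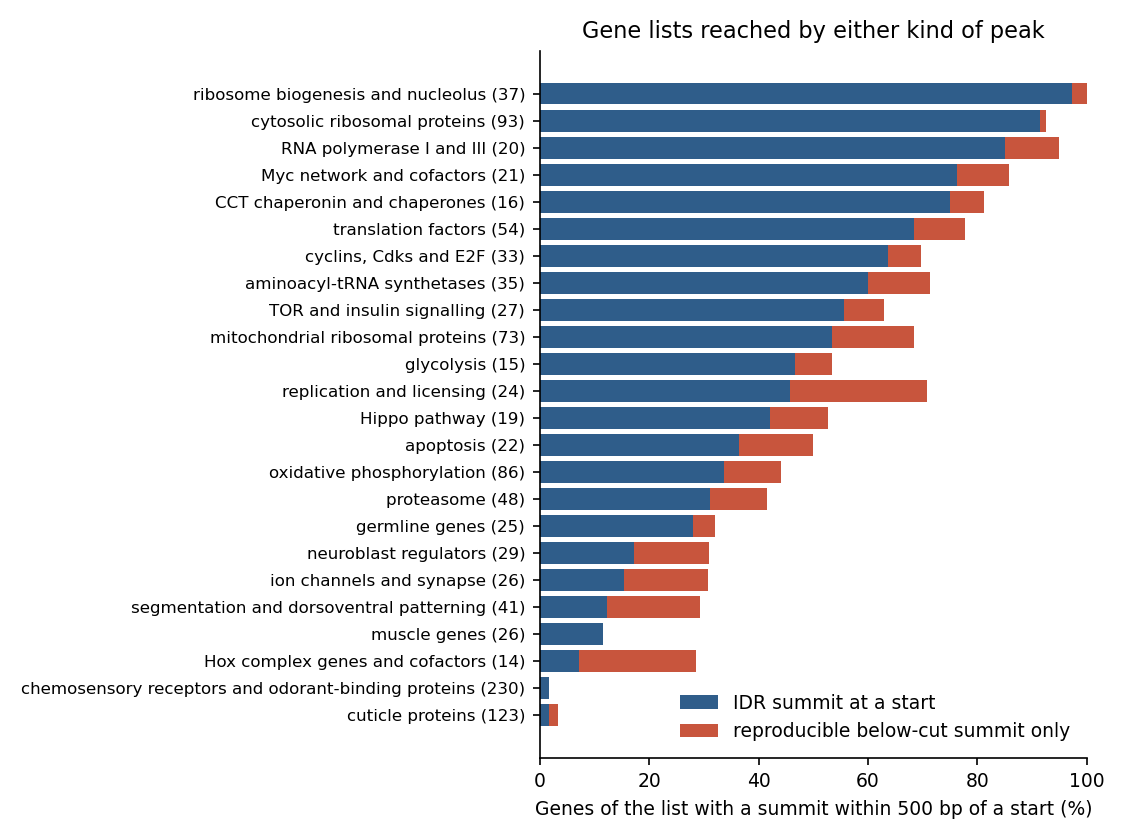
Share of each gene list (number of genes in brackets) with an IDR summit within 500 bp of a start (blue) or with a reproducible below-cut summit and no IDR summit there (red), in percent (x axis). IDR summits cover most ribosome genes, members add 6 of 24 replication and licensing genes, and both are scarce at chemosensory and cuticle genes.

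Replication genes reached by a member alone were Orc6, PolE1, Orc4, Mcm7, Orc5 and PolD1. At Orc6, a subunit of the origin recognition complex, the summit lay 42 bp upstream of the start at rank 4380. Its relative signal was 0.591, 0.74 and 0.468 in replicates 1, 2 and 3. At PolE1, the catalytic subunit of DNA polymerase epsilon, it was 0.595, 0.354 and 0.422, with the summit 2 bp downstream of the start. Both were below a typical IDR peak in all 3 replicates, and their ranges overlapped. At Orc4, another subunit of that complex, the values were 0.612, 0.508 and 0.523, the most even of the 3 genes.

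In the translation lists, RpL38 was the one cytosolic ribosomal protein gene with a member and no IDR summit, against 85 of 93 genes with an IDR summit. That is 1 of the 8 without an IDR summit (12.5%, 2.24 to 47.1), near the 12.1% over all genes. Its member had a pooled signal of 84.1, a summit 38 bp upstream of the start, and relative signals of 0.635, 0.562 and 0.268, lowest in replicate 3. At mRpL13, a large-subunit protein of the mitochondrial ribosome, the values were 0.48, 0.811 and 0.298. At mRpL19 they were 0.448, 0.719 and 0.45, replicate 2 being the highest in both. The window of mRpL19 held TATCGATA and CAGCTG. At eIF4G1, the scaffold of the cap-binding complex, the values were 0.87, 0.372 and 0.456. At eIF3l, a subunit of the initiation factor eIF3, they were 0.515, 0.55 and 0.539, among the closest agreement of the named members. At MetRS, which charges methionyl tRNA, they were 0.82, 0.465 and 0.272. Polr3C, a subunit of RNA polymerase III, had 0.748, 0.716 and 0.366, again lowest in replicate 3.

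Proteostasis and energy genes had members with list medians of pooled signal of 89.7 for the proteasome and 82.7 for oxidative phosphorylation. Rpt6, an ATPase subunit of the proteasome, had relative signals of 0.856, 0.4 and 0.433, high in replicate 1 alone. Prosalpha6, a core subunit, had 0.632, 0.352 and 0.46 with TATCGATA in its window. Hsc70-3, the chaperone of the endoplasmic reticulum, held CACGTG in its window, with 0.818, 0.229 and 0.441, lowest in replicate 2. ND-B18, a subunit of respiratory complex I, had 0.617, 0.508 and 0.554. Pgi, the glucose-6-phosphate isomerase of glycolysis, had 0.601, 0.47 and 0.761. It was the 1 gene with a member among 8 glycolysis genes without an IDR summit (12.5%, 2.24 to 47.1), also near the 12.1%. Phb2, a prohibitin of the inner mitochondrial membrane, gave the strongest member of all, 232 bp downstream of its start with 0.605, 0.827 and 0.545, and 204 bp from an IDR summit.

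Lists of regulators of growth, division and death had shares whose intervals include the 12.1%. Members reached 2 of 12 genes without an IDR summit among cyclins, Cdks and E2F (16.7%, 4.7 to 44.8) and 2 of 12 in TOR and insulin signalling. In the Hippo pathway it was 2 of 11 (18.2%, 5.14 to 47.7), and among apoptosis genes 3 of 14 (21.4%, 7.57 to 47.6). dap, a Cdk inhibitor, had a member 5 bp upstream of its start with relative signals of 0.472, 0.688 and 0.364. Lst8, a partner of TOR kinase, had 0.766, 0.722 and 0.214, dropping in replicate 3 alone. osa, a subunit of the Brahma chromatin remodeller, had 0.596, 0.445 and 0.439. Among apoptosis genes, the effector caspase Drice had 0.488, 0.652 and 0.509 with GGTCACAC in its window, and the caspase inhibitor Diap1 0.452, 0.642 and 0.34. Diap1 and Drice were both highest in replicate 2. ft, the atypical cadherin of the Hippo pathway, had 0.449, 0.63 and 0.216 at rank 8465.

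Developmental genes gave members over a wide range of signal, with list medians of 64.0 for Hox complex genes and cofactors, 78.5 for segmentation and dorsoventral patterning and 98.4 for neuroblast regulators. The Hox genes Antp and Dfd had pooled signals of 70.2 and 64.0, and exd, the Hox cofactor, had 49.8 at rank 12864. Relative signal was 0.235, 0.402 and 0.448 at Antp, and 0.216, 0.387 and 0.438 at exd, lowest in replicate 1 in both. At Dfd it was 0.375, 0.338 and 0.397, with GGTCACAC in the window. oc, a head gap gene, had 1.048, 0.344 and 0.292, above a typical IDR peak in replicate 1 alone. The neuroblast genes insc and chinmo had 0.513, 0.441 and 0.655, and 0.365, 0.668 and 0.584. The potassium channel gene sei had 0.423, 1.139 and 0.68, with a summit 236 bp upstream of its start and within reach of gammaSnap1 as well.

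Of the Myc network and cofactors list, 16 of 21 genes had an IDR summit at a start, and osa and Brms1 were the 2 of the other 5 with a member (40.0%, 11.8 to 76.9). Brms1 had relative signals of 0.377, 0.559 and 0.215. Of the 12 genes followed by name, RpL38 alone had a member at a start. Myc, Max, Mnt, Mondo and Tif-IA, the RNA polymerase I initiation factor, each had an IDR summit there. CycE, stg, Hcf, ago, Nipped-A and the snoRNA host gene Uhg7 had neither. Other below-cut peaks, which did not meet the rule, lay at the starts of CycE (2), stg (1) and ago (3). For stg, the Cdc25 phosphatase, the nearest member lay 553 bp from a start, just outside the promoter limit. Within its gene body outside promoters, Mnt held 3 members and Myc, Mondo and ago 1 each.

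The strongest members away from promoters were picked by pooled signal just under the line, so their like pooled size follows from that choice. In an intron of Moe, which links actin to the membrane, the member at rank 4373 had relative signals of 0.626, 0.544 and 0.57. In an intron of rg, an A-kinase anchor protein, the member with the CACGCG window above had 0.545, 0.532 and 0.652. The intron member of Ddr, nearest the start of CG13983, had 0.615, 0.573 and 0.591. These 3 varied little between replicates. An intergenic member nearest the start of Cyp12e1, 59537 bp away, had 0.223, 0.526 and 0.905, a range wider than the others. Among the members named here, evenness did not go with the class, and this was not examined over all members. An intron member of dnr1 had 0.587, 0.82 and 0.242. The intergenic members nearest CG14629 and Argk2 had 0.565, 0.584 and 0.525, and 0.514, 0.497 and 0.636.

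Long genes collected several such members. Non-promoter members lay in the bodies of 998 of the 13945 protein-coding genes, and 105 genes held 3 or more. Those 105 had a median length of 47.6 kb, against 2.17 kb for all protein-coding genes. A longer body has more room for summits, and the counts were not adjusted for length. The genes named next were chosen after their counts were seen. kirre, an adhesion protein of myoblast fusion, held 13 members in 394.1 kb, or 0.33 per 10 kb, beside 12 IDR summits. hth, a Hox cofactor, held 8 beside 1 IDR summit. tkv, a receptor for the BMP ligand Dpp, and kek5 held 6 each with no IDR summit in the body. kibra, of the Hippo pathway, held 6 in 26.6 kb, or 2.26 per 10 kb. InR, the insulin receptor, held 5, or 1.02 per 10 kb, beside 8 IDR summits.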

How the data were processed

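ChIP-seq peak lists of 3 replicates and of the pooled replicates were used as deposited, in dm6 coordinates. Per the file headers and listing, relaxed lists came from alignments with a control, and the IDR list from the relaxed ones. Signal and −log10 q-values per peak are the authors' own, deposited in narrowPeak columns, and the sources used here do not state their scaling, the aligner, the peak caller or the IDR threshold. There are no read counts, so depth is unknown. Nothing in the labels says whether biological replicates shared a collection.

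Summits were classed with the Ensembl 115 annotation (BDGP 6.54), and windows of 101 bases were read from the RefSeq dm6 FASTA. A replicate's relative signal is its value over the median of IDR peaks in that replicate. Shares were compared by Fisher's exact test and, within peaks, by an exact McNemar test, and odds ratios with each other by Zelen's exact test. GC content was compared by permutation (100000 resamples), with Benjamini-Hochberg adjustment and a threshold of 0.05 (scipy 1.17.1, numpy 2.4.6, pandas 2.3.3, Python 3.11.15). The word test was checked on simulated data.

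Named genes were the 12 strongest promoter members, the 8 strongest others, up to 3 per gene list, 12 genes fixed by name, and the strongest member with each word that passed; of these the text gives a selection by role. The members and the 24 gene lists were chosen with earlier results of these data known. After the matches were seen, a ribosomal protein name pattern and several misplaced genes were corrected in the lists, in which 6 symbols matched no gene. Alternatives varied the summit distance, promoter width, word window, comparison set and replicates.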

Additional observations from a re-analysis of the deposited data

How the results depend on the processing

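Recomputing 14 results under 130 alternatives left 108 in direction and on the same side of the threshold, or, for counts, within 1.5 times. The members numbered 1540 with summits matched within 50 bp, 5561 within 200 bp and 1668 at or above the median signal, and 5246 to 6424 with 1 replicate left out of the rule; the dm3 lists gave 3195. Genes reached only by members were 594 at 50 bp, 767 for the stronger members, and 1702 to 1954 with 1 replicate left out. Against the weakest IDR peaks, odds ratios for CACGTG, TATCGATA and GGTCACAC were 0.774, 0.672 and 0.932, and the ratio for CACGTG at promoters against elsewhere was 0.98; none passed. At promoters alone TATCGATA had 0.753 and GGTCACAC 1.02, a reversed direction, and GGTCACAC had 0.775 in the stronger members. Over ranks 4372 to 8742, the promoter odds ratio was 0.89 at 50 bp and 0.9 with 250 bp promoters. It ran from 0.723 to 1.0 with 1 replicate left out. The intergenic odds ratio was 1.16 at 50 bp and ran from 0.969 to 1.39. The cause was not tested. No paired analysis was possible because the 3 replicates form 1 group. Depth is unknown, so the lists cannot show whether peaks missing from a replicate were unbound there or under its list's limit.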
